A study of Mus musculus with 2 samples.

Results

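The HMGA, LIN28 and IGF2BP families were followed through 7 genes of the 25828 features measured in both libraries. They are Hmga1 (ENSMUSG00000046711), Hmga2 (ENSMUSG00000056758), Lin28a, Lin28b, Igf2bp1, Igf2bp2 and Igf2bp3, matched by symbol. The set was chosen because Hmga2 differed strongly between the 2 libraries in earlier results of these data. The difference between the libraries is therefore the measure that chose the genes, and it is given below as a description with no test.

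The study made induced myogenic progenitor cells (iMPCs), which resemble muscle stem cells, from mouse embryonic fibroblasts with MyoD delivered as mRNA in place of a MyoD transgene. Both libraries came from fibroblasts of the genotype Tg:Pax7-nGFP/C57BL6;DBA2, in which a nuclear green fluorescent protein reports Pax7, and both clones were made by 4 transfections of synthetic MyoD-mRNA in iMPC medium with B18R, a decoy receptor for interferons. One clone arose and was kept in Forskolin, RepSox and CHIR (F/R/C, also called the library without CP below), and the other in this mixture plus CP, which blocks JAK kinases (F/R/C+CP, also called the library with CP). Each group is 1 library from 1 clone, so effects of clone, of medium and of library preparation cannot be told apart, and the design allows no test between them. Myotubes were strained out of both preparations, so the most differentiated cells are missing from the counts.

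After filtering, 3962 F/R/C cells with a median of 7112 unique molecular identifiers (UMIs) and 10834 F/R/C+CP cells with a median of 21844.5 UMIs were kept. The authors deposited 5541 barcodes for the F/R/C library and 12000 for the F/R/C+CP library. The F/R/C cells ranged from 500 to 23465 UMIs and the F/R/C+CP cells from 12097 to 113007, and 18 barcodes were shared by the libraries. The class shares below therefore cover unlike ranges of depth. Clusters were named from marker genes. The Pax7-like class held 54.0% of the cells without CP (2140) and 58.5% of those with CP (6341), the committed-like class, with Myog, 22.1% and 19.3%, and the muscle-like class, with sarcomere genes, 12.9% and 18.7%. Pax7, the defining gene of muscle stem cells, stood at 236 CPM (counts of the gene per 1000000 counts of all genes) in the Pax7-like class without CP and 145 CPM in that with CP. The F/R/C library also held a connective-like cluster (287 cells), in which Pax7 stood at 261 CPM, and the F/R/C+CP library a pericyte or smooth muscle-like cluster (195 cells) and a melanocyte-like cluster (59 cells). Of 8 pluripotency markers, 3 had no UMI in the F/R/C library and 1 in the F/R/C+CP library, and their summed level was 0.898 and 1.79 CPM.

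HMGA1 and HMGA2 are chromatin proteins that bind AT-rich DNA and shape enhancer and promoter architecture. They are abundant in the embryo and in proliferating progenitors and scarce in most adult tissues. LIN28A and LIN28B bind precursors of the let-7 microRNAs and block their maturation. Let-7 in turn lowers the mRNAs of Hmga2, of both Lin28 genes and of the Igf2bp family, so high let-7 goes with differentiated cells and low let-7 with fetal ones. IGF2BP1, IGF2BP2 and IGF2BP3 are RNA-binding proteins that bind Igf2 and many other mRNAs. IGF2BP1 and IGF2BP3 are mostly fetal and return in tumours, whereas IGF2BP2 persists in adult tissue. In mouse muscle, Hmga2 and Igf2bp2 are known to act together in the proliferation of myoblasts.

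Let-7 microRNAs themselves were not measured by this assay. Their sequences and target sites are shown because each of the 7 mRNAs carries such a site. The mature sequences below are from RefSeq (build GRCm38.p6), and the capitals mark the seed, bases 2 to 8.
mmu-let-7a-5p: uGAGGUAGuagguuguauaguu
mmu-let-7d-5p: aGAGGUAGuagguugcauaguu
mmu-let-7g-5p: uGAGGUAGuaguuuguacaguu
mmu-miR-98-5p: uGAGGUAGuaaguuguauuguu
mmu-let-7j: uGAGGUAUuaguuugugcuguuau
Of the 11 mature sequences of the family in that table, 10 shared the seed GAGGUAG, and let-7j had another last seed base. The let-7a copy used here lies on chromosome 13, bases 48538239 to 48538260 of the minus strand.

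The letters CTACCTC, which pair with this seed, were searched on the transcript strand of the longest 3' UTR of each gene in GENCODE vM21. Each of the 7 genes held at least 1 match. Hmga2 (chromosome 10, 3' UTR of 3014 bases), Lin28b (chromosome 10, 4445 bases) and Igf2bp1 (chromosome 11, 6337 bases) held 4 matches each, Lin28a (chromosome 4) held 2, and Hmga1 (chromosome 17), Igf2bp2 (chromosome 16) and Igf2bp3 (chromosome 6) held 1 each. Across 21014 genes with an annotated 3' UTR, 9.03% held a match and 0.152% held 3 or more. Longer 3' UTRs hold matches more often, so each gene was read against 3' UTRs of like length. Among 2439 3' UTRs of 80 to 125% of the Hmga2 length, 16.1% held a match and 0.123% held at least 4. The shares with at least 4 were 0.295% around the length of Lin28b and 0.331% around that of Igf2bp1. All 4 matches of Hmga2, the first match of Lin28b, the first of Igf2bp1 and the single matches of Igf2bp2, Igf2bp3 and Hmga1 are shown as windows of 24 bases of the transcript strand, with the pairing bases in capitals and a following A, where there is one, also in capitals.
Hmga2 site 1: cgccgacattcaatttCTACCTCA
Hmga2 site 2: tccccactcctcaataCTACCTCt
Hmga2 site 3: cctgatttgcaaggaaCTACCTCc
Hmga2 site 4: caatcaaaacacactaCTACCTCt
Lin28b site 1: cacccgggcgggaagtCTACCTCA
Igf2bp1 site 1: tgctgtgcgaagtaaaCTACCTCA
Igf2bp2 site 1: aacacacaaataaaagCTACCTCA
Igf2bp3 site 1: gtgcatttttactcaaCTACCTCA
Hmga1 site 1: ctcctctgttcacaaaCTACCTCt
The first Hmga2 match began 58 bases after the stop codon and the others 1295, 1733 and 2591 bases after it. The first Lin28b match was also close to the stop codon, at 36 bases, whereas the first of Igf2bp1 was at 1715 bases. A match is a description of these letters, and let-7 binding was not measured.

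**Figure D1:**
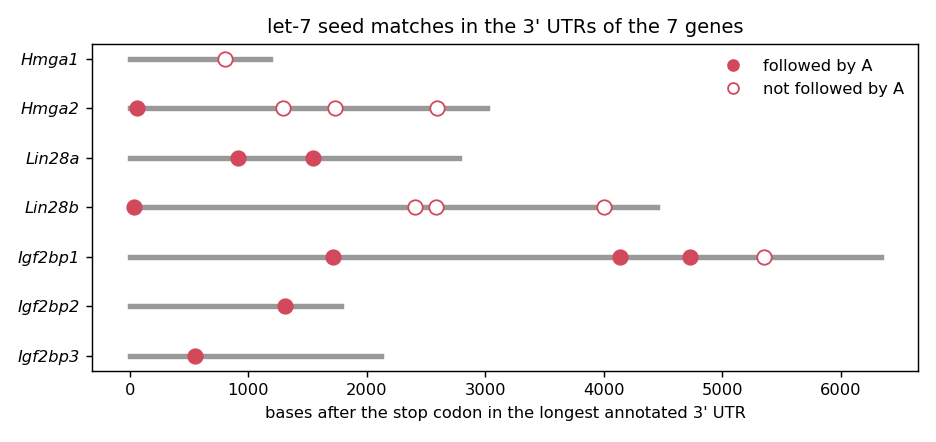
Position of let-7 seed matches, in bases after the stop codon (x axis), along the longest annotated 3' UTR of each of the 7 genes (grey lines). Filled circles are matches followed by A and open circles are not. Hmga2, Lin28b and Igf2bp1 have 4 matches each, and the first ones of Hmga2 and Lin28b lie 58 and 36 bases after the stop codon.

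Hmga2 had the largest ratio between the libraries among the 5 genes with enough counts in each. In all kept cells it stood at 418 CPM (95% Poisson interval 410 to 426, 11637 UMIs) in the F/R/C library and at 23.3 CPM (6332 UMIs) in the other. The level with CP was 17.9-fold lower, a log2 ratio of -4.16 (95% interval -4.21 to -4.12). Intervals here cover counting error only, with no spread between clones or cultures. Among the 6613 features that reached 20 CPM in either library, Hmga2 had the 18th lowest ratio. In the range of 12097 to 23465 UMIs that the cells of both libraries reached, which kept 190 cells without and 6213 with CP, the log2 ratio was -2.89.

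The other genes split into a larger group that was lower and 1 gene that was clearly higher with CP. Hmga1, the close relative of Hmga2, stood at 22.0 CPM (613 UMIs) in F/R/C and 2.52 CPM (685 UMIs) in F/R/C+CP, a log2 ratio of -3.12. Hmga1b, a near-identical copy, had 17 and 38 UMIs, so counting could split reads between the features and the Hmga1 values are uncertain. Igf2bp1 stood at 32.1 CPM (894 UMIs) against 8.54 CPM (2316 UMIs), a log2 ratio of -1.91, and Igf2bp2 at 131 CPM (3661 UMIs) against 55.6 CPM (15094 UMIs), a log2 ratio of -1.24. In the shared UMI range given above, the Igf2bp2 ratio over all cells was -0.60 and no longer past 2-fold, and that of Hmga1 was -2.32. Within Pax7-like cells, whose shared range kept 57 cells without and 1210 with CP, they were -1.02, still past 2-fold, and -3.01.

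Igf2bp3 differed in the other direction. It stood at 8.37 CPM (233 UMIs) in F/R/C and 34.7 CPM (9403 UMIs) in F/R/C+CP, 4.14-fold higher with CP and a log2 ratio of 2.05 (95% interval 1.86 to 2.24), and of 2.88 in the shared UMI range. Its ratio ranked 73rd from the highest among the 6613 features at 20 CPM or more. The 3 IGF2BP genes thus differed between the clones in opposite directions.

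The 2 LIN28 genes were at or near the limit of detection. Lin28a had 0 UMIs in the F/R/C library, which allows a level of up to 0.108 CPM (3 counts over the library), and 37 UMIs in the F/R/C+CP library, or 0.136 CPM. The Poisson intervals of these levels, 0 to 0.132 CPM and 0.0960 to 0.188 CPM, overlapped, so a difference was not detectable at this depth. Lin28b had 1 UMI without CP and 77 with CP, or 0.0359 and 0.284 CPM, a log2 ratio of 2.98 whose interval ran from 0.46 to 8.30. With each cell thinned to 2000 UMIs, a Lin28b UMI was found in 6 of 10834 cells with CP (0.0554%, exact interval 0.0203 to 0.121%) and 1 of 3584 without (0.0279%, 0.000706 to 0.155%), which overlap. The unthinned shares were 0.701% and 0.0252% at median depths of 21844.5 and 7112 UMIs. Of the 37 Lin28a UMIs, 24 were in muscle-like cells, where 13 of 2031 cells held them, 9 were in Pax7-like cells and 4 in committed-like cells. Lin28b had 40, 12 and 21 UMIs in the Pax7-like, committed-like and muscle-like cells of the same library.

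In all kept cells, 4 of the 7 genes (Hmga1, Hmga2, Igf2bp1 and Igf2bp2) were lower by at least 2-fold in F/R/C+CP and 2 (Lin28b and Igf2bp3) were higher, where 13.2% of 17999 features with at least 10 counts were lower and 12.1% higher. The set was chosen on this contrast, so nothing is read from these counts. The median log2 ratio of all these features was -0.10.

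**Figure D2:**
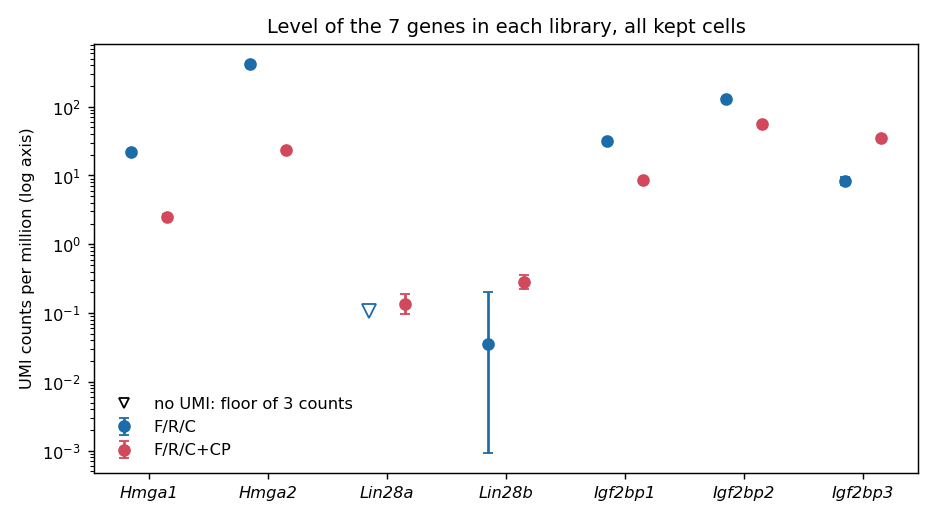
Level of each of the 7 genes in the F/R/C (blue) and F/R/C+CP (red) library, in CPM on a log axis. Points are summed counts of all kept cells, bars are 95% Poisson intervals, and the open triangle marks a gene with no UMI at a floor of 3 counts. Hmga2 lies at 418 and 23.3 CPM and Igf2bp3 at 8.37 and 34.7 CPM.

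Within each library, Hmga2 was highest in Pax7-like cells among the myogenic classes. Without CP it stood at 679 CPM in Pax7-like cells, 25.1 CPM in committed-like cells and 23.5 CPM in muscle-like cells. Pax7-like cells were 27.0-fold above committed-like cells and 28.9-fold above muscle-like cells, whereas the committed-like and muscle-like levels lay close together. With CP it stood at 36.3, 6.97 and 3.09 CPM in the same order, so that Pax7-like cells were 5.21-fold and 11.8-fold above the other classes. At a clustering resolution of 0.3 the log2 ratio of Pax7-like over muscle-like cells with CP was 2.50 in place of 3.56. Hmga2 took part in the clustering, as a variable gene in both libraries, and led F/R/C clusters 0 and 2, so its difference between clusters is no independent finding. With the 7 genes and the listed pathway genes left out of the clustering, the log2 ratio of Pax7-like over muscle-like cells was 4.83 in place of 4.85 without CP and 3.44 in place of 3.56 with CP. The classes with CP were not the same cells in that clustering. The Pax7-like class held 7265 cells in place of 6341, and the committed-like class 1170 in place of 2089. In the main clustering, the median log2 ratio of all features for Pax7-like over muscle-like cells was 0.68 without and 0.50 with CP.

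Free RNA in the droplets gives counts in cells that lack a gene, and the low Hmga2 levels were set beside it. With CP, Acta1, the skeletal muscle actin, stood at 7.15% of its muscle-like level in Pax7-like cells and at 8.48% in melanocyte-like cells. The Hmga2 level of muscle-like cells with CP was 8.49% of that of Pax7-like cells. Without CP, Acta1 stood in Pax7-like cells at 1.03% of its muscle-like level and Hmga2 in muscle-like cells at 3.47% of its Pax7-like level. Among the myogenic classes, Acta1 was highest in muscle-like and Hmga2 in Pax7-like cells, classes of unlike size. The percent of 1 gene therefore gives no yardstick for the other. The part of free RNA in these levels was not tested. The methods describe a correction for free RNA for the library with CP alone, and nothing states if the deposited counts carry it.

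The Pax7-like clusters without CP lay close together in Hmga2, and those with CP did not. The levels without CP were 715 CPM in cluster 0, 638 CPM in the cycling cluster 2 and 680 CPM in cluster 3. With CP they were 15.4 CPM in cluster 0, 15.3 CPM in the cycling cluster 1 and 159 CPM in cluster 4 (1030 cells). Cluster 4 was therefore 10.4-fold above clusters 0 and 1 together. It was led by Spp1, Scg2, Areg, Ebf1 and Pde1a and had the highest Pax7 level of that library, 280 CPM against 114 and 129 CPM. Like F/R/C cluster 3, it had the lowest Cdkn1c level among its Pax7-like neighbours, 1094 CPM against 2313 and 2046 CPM. Pax7 set the pair apart, since F/R/C cluster 3 had the lowest level among its own Pax7-like neighbours, 175 CPM against 272 and 243 CPM. Cdkn1c encodes the cell cycle inhibitor p57. F/R/C cluster 3 stood at 64.7 CPM of Cdkn1c against 2922 and 3042 CPM, yet its Hmga2 level was 680 CPM against 678 CPM in the other Pax7-like clusters. These clusters were set side by side after their values had been seen. At other clustering settings, an Spp1-led cluster of the F/R/C+CP library was named pericyte or smooth muscle-like, so comparisons that use cluster 4 depend on its name.

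The size of the difference between the libraries thus varied with the Pax7-like cells compared. Hmga2 was 18.7-fold lower with CP over all Pax7-like cells (36.3 against 679 CPM), 4.29-fold lower between the low-Cdkn1c clusters and 44.3-fold lower between the other Pax7-like clusters. Low-Cdkn1c here means the lowest Pax7-like cluster of each library, cluster 4 with CP and cluster 3 without. Their Cdkn1c levels were unlike, 1094 against 64.7 CPM, so they are not matched states. In committed-like cells it was 3.60-fold lower and in muscle-like cells 7.62-fold lower.

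The highest Hmga2 level of the F/R/C+CP library was in the melanocyte-like cluster, led by Dct, Tyrp1 and Pmel. It reached 426 CPM (495 UMIs over 59 cells), and 43 of the 59 cells (72.9%) held a UMI. This level was above every other F/R/C+CP cluster and under the F/R/C Pax7-like clusters. Hmga1 in the same cells stood at 2.58 CPM (3 UMIs) and Igf2bp1 at 1.72 CPM (2 UMIs). The pericyte or smooth muscle-like cluster, led by Actg2, Igfbp7, Ccnd2 and Myh11, came after cluster 4 with 51.7 CPM. Without CP the connective-like cluster, led by Col5a2, Mgp and Col3a1, stood at 346 CPM, between the Pax7-like and muscle-like levels.

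**Figure D3:**
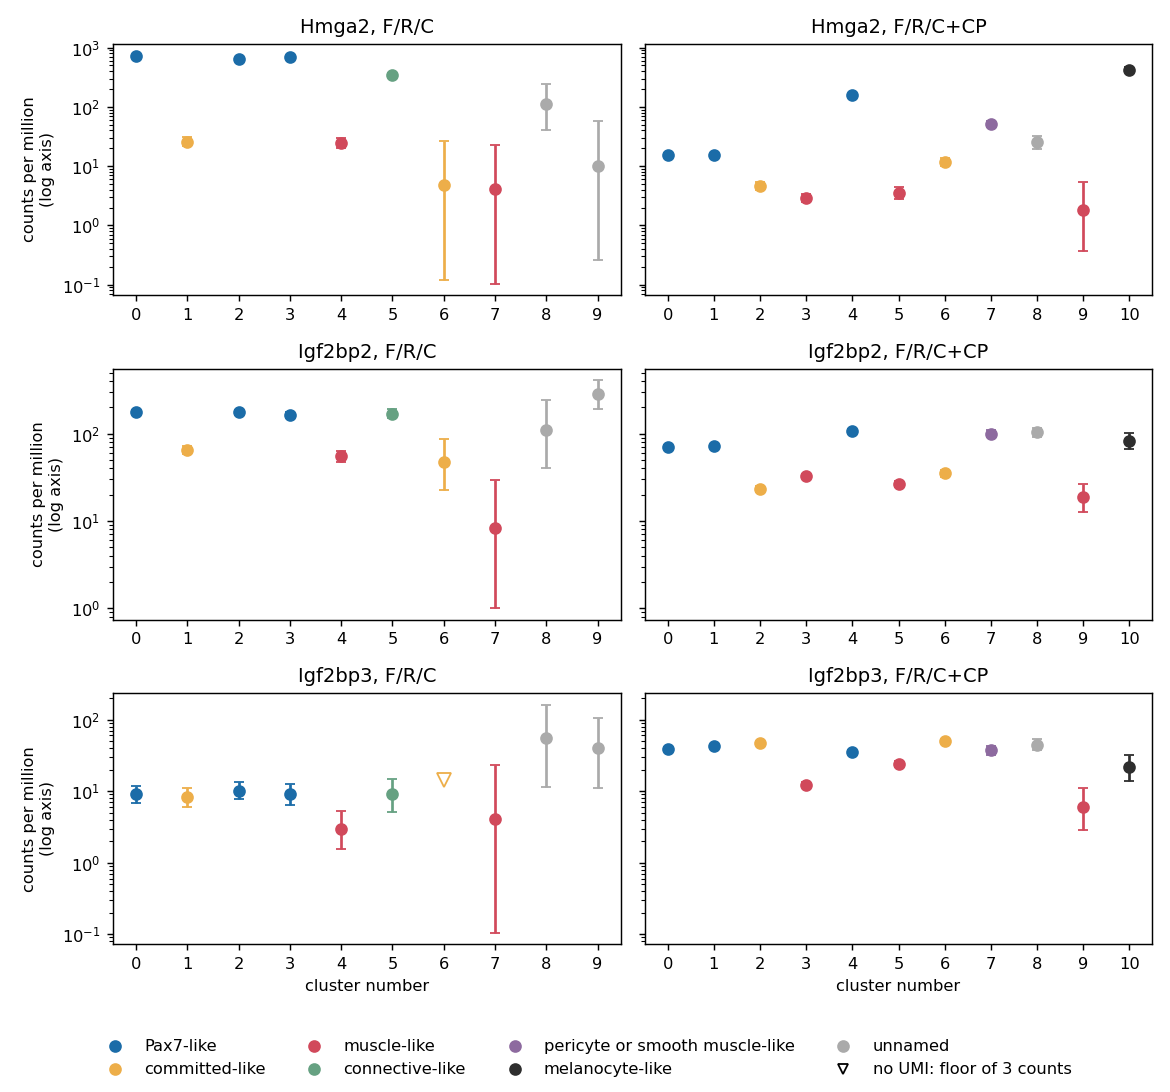
Level of Hmga2 (top), Igf2bp2 (middle) and Igf2bp3 (bottom) in each cluster of the F/R/C (left) and F/R/C+CP (right) library, in CPM on a log axis. Colours give the cell class, bars are 95% Poisson intervals, and an open triangle marks a cluster with no UMI at a floor of 3 counts. Hmga2 lies at 638 to 715 CPM in the F/R/C Pax7-like clusters, and at 15.3 to 159 CPM in those with CP, whereas Igf2bp3 lies at 35.4 to 42.1 CPM in the latter.

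Hmga2 was also uneven from cell to cell. To compare cells of different depth, each cell was thinned to 2000 UMIs, which left out 18 Pax7-like, 162 committed-like and 53 muscle-like cells of the F/R/C library and 0 cells of the other. An Hmga2 UMI was then found in 991 of 2122 F/R/C Pax7-like cells (46.7%, exact interval 44.6 to 48.9%) and 334 of 6341 F/R/C+CP Pax7-like cells (5.27%, 4.73 to 5.85%). Unthinned, the shares were 64.7% and 24.0% at median depths of 7262 and 19743 UMIs. In muscle-like cells, which carry little of the gene, the thinned shares were 2.84% and 0.591%, at median depths of 8959 and 33901 UMIs, and in committed-like cells 3.09% and 0.957%. Thus the F/R/C+CP Pax7-like share lay above its own muscle-like share and below the F/R/C Pax7-like share.

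Among the thinned F/R/C Pax7-like cells, 53.3% held no Hmga2 UMI, 26.8% held 1 or 2, 18.9% held 3 to 9 and the rest 10 or more, up to 24. The 213 cells with the most carried 47.6% of all Hmga2 UMIs. The unevenness was inside the clusters: 55.0%, 50.8% and 53.2% of the cells of clusters 0, 2 and 3 held none. With CP, 0.489% of Pax7-like cells held 3 to 9 UMIs, and 2.91% of the cells of cluster 4. In the melanocyte-like cluster 45.8% of cells held an Hmga2 UMI and 18.6% held 3 or more.

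**Figure D4:**
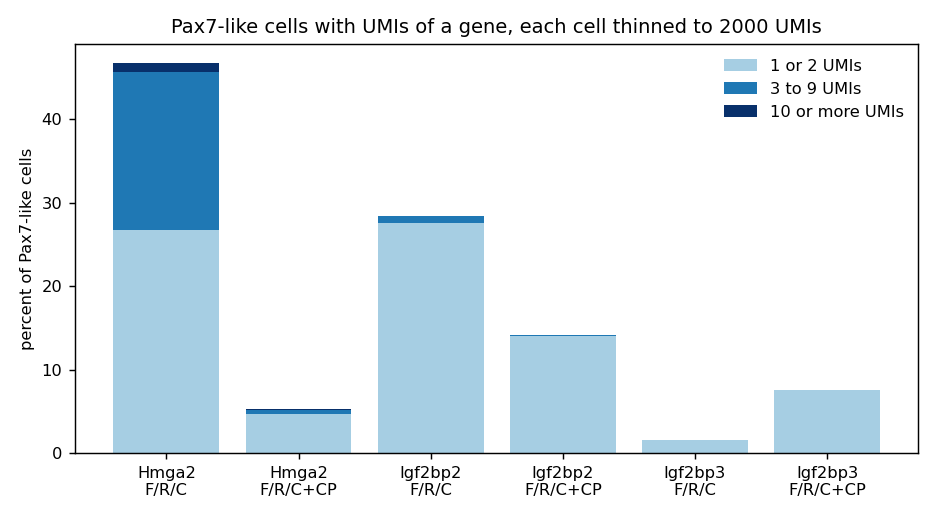
Percent of Pax7-like cells (y axis, from 0) with 1 or 2, 3 to 9, or 10 or more UMIs of Hmga2, Igf2bp2 or Igf2bp3 in each library, after each cell was thinned to 2000 UMIs. The bar of Hmga2 reaches 46.7% without and 5.27% with CP, and that of Igf2bp3 1.60% and 7.54%.

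Igf2bp2 was also higher in Pax7-like than in committed-like and muscle-like cells, with smaller differences than Hmga2. Without CP it stood at 172 CPM in Pax7-like, 63.7 CPM in committed-like and 52.2 CPM in muscle-like cells, and with CP at 77.5, 27.0 and 30.8 CPM. Pax7-like cells were 3.30-fold above muscle-like cells without CP and 2.52-fold above them with CP. The 3 F/R/C Pax7-like clusters lay between 162 and 176 CPM and the F/R/C+CP ones at 71.2, 73.0 and 109 CPM, with cluster 4 again the highest. With CP the level was 2.22-fold lower in Pax7-like cells (95% interval of the log2 ratio -1.21 to -1.09) and 1.70-fold lower in muscle-like cells. After thinning, 28.4% of F/R/C and 14.2% of F/R/C+CP Pax7-like cells held an Igf2bp2 UMI, and the muscle-like shares were 8.75% and 6.30%.

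Igf2bp3 and Igf2bp1 had other patterns. Igf2bp3 stood without CP at 9.52 CPM in Pax7-like, 7.92 CPM in committed-like and 3.06 CPM in muscle-like cells, and with CP at 40.2, 48.1 and 15.5 CPM. Its highest named class with CP was thus the committed-like one, and it was higher with CP in each class: 4.22-fold in Pax7-like, 6.08-fold in committed-like and 5.07-fold in muscle-like cells. After thinning, 1.60% of F/R/C and 7.54% of F/R/C+CP Pax7-like cells held an Igf2bp3 UMI, against 0.438% and 3.45% of muscle-like cells. Cluster 4, where Hmga2 was highest among the Pax7-like clusters with CP, had the lowest Igf2bp3 level of them, 35.4 CPM against 39.5 and 42.1 CPM.

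Igf2bp1 was lower in the Pax7-like than in the muscle-like cells of F/R/C+CP, at 6.68 against 11.3 CPM, with committed-like cells at 9.96 CPM. Without CP the order was committed-like (38.0 CPM), Pax7-like (33.3 CPM) and muscle-like (23.1 CPM), and the first and second of these overlapped within counting error, with a log2 ratio of -0.19 (95% interval -0.42 to 0.04). Cluster 4 had the lowest Igf2bp1 level among the Pax7-like clusters with CP, 3.42 CPM (68 UMIs) against 6.83 and 7.54 CPM. Between the libraries Igf2bp1 was 4.98-fold lower in Pax7-like cells and 2.05-fold lower in muscle-like cells. Hmga1 resembled Hmga2 at a lower level, with 29.6, 14.3 and 6.12 CPM in the Pax7-like, committed-like and muscle-like cells without CP and 3.42, 1.22 and 1.39 CPM in those with CP. In F/R/C cluster 3, however, it was 2.25-fold lower than in the other Pax7-like clusters, where Hmga2 did not differ beyond counting error.

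Of the 6 genes with enough counts in Pax7-like cells, 4 (Hmga1, Hmga2, Igf2bp1 and Igf2bp2) were lower by at least 2-fold in F/R/C+CP and 1 (Igf2bp3) was higher, where 13.5% of 16793 features were lower and 11.6% higher. Among the 6724 features at 20 CPM or more in either library, 8.43% were lower and 4.76% higher, and Hmga2 ranked 28th, Hmga1 66th, Igf2bp1 123rd and Igf2bp2 439th from the lowest, while Igf2bp3 ranked 115th from the highest. Between Pax7-like and muscle-like cells of F/R/C, 4 of the 5 genes with enough counts (all but Igf2bp1) were at least 2-fold higher in Pax7-like cells and 0 were lower, where 38.5% of 13642 features were higher and 10.5% lower. With CP, 4 of 7 (Hmga1, Hmga2, Igf2bp2 and Igf2bp3) were higher and 1 (Lin28a) was lower, where 34.0% of 17356 features were higher and 15.3% lower.

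**Figure D5:**
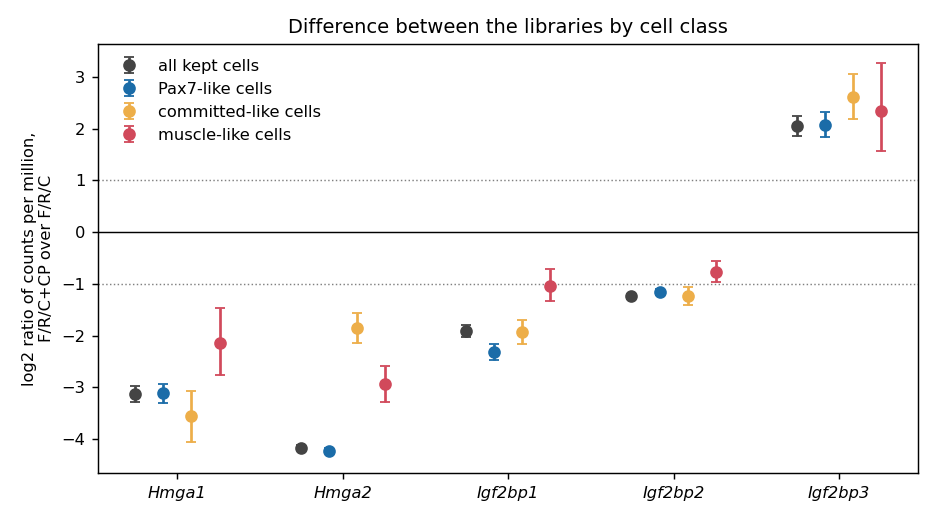
Log2 ratio of CPM, with CP (F/R/C+CP) over without CP (F/R/C), for the 5 genes with enough counts in each library, in all kept cells and in 3 cell classes. Bars are 95% intervals from counting error, and dotted lines mark 2-fold. Hmga1, Hmga2, Igf2bp1 and Igf2bp2 lie below 0 in each class, Hmga2 at -4.22 in Pax7-like cells, and Igf2bp3 lies between 2.05 and 2.60.

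Detection of the genes in single Pax7-like cells overlapped only in part. After thinning, Igf2bp2 was found in 31.2% of the F/R/C cells that held an Hmga2 UMI and 26.0% of those that did not, and in 20.1% against 13.9% of the F/R/C+CP cells. Igf2bp3 was found in 1.92% against 1.33% and in 8.98% against 7.46%. These shares are descriptions of sparse counts, and cells of 1 library share their source.

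Across the clusters of at least 50 cells (21 in all, 10 from F/R/C and 11 from F/R/C+CP), the gene whose level was most like that of Hmga2 was Frk, a tyrosine kinase of the Src group, with a Pearson r of 0.94 on log2(CPM + 5). Its r was 0.97 within each library. Pi4k2b (r of 0.91), a lipid kinase, Kif21a (0.90), a kinesin, Rab31 (0.90), a small GTPase, and Sdc3 (0.90), a syndecan of muscle progenitors, came next among 8523 features. By the mean of the 2 within-library values, the list was Frk (0.97), Mgat5 (0.95), Fbxl7 (0.94), Specc1 (0.93) and Sdc3 (0.93). With a pseudocount of 1 CPM, 1 gene of the first list and 2 of the second stayed among the 5 most alike, Frk in both. Among the 7 genes, r with Hmga2 was 0.72 for Igf2bp2, 0.64 for Hmga1, 0.15 for Igf2bp1 and -0.04 for Igf2bp3. For Igf2bp1 it was 0.21 within the library without CP and -0.87 within that with CP. Clusters of 1 library share depth, background and the genes that made them, so these values carry no test.

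In Pax7-like cells, genes that make and destroy let-7 were lower by at least 2-fold with CP about as often as all features. This list and those below were chosen with earlier results of these data known, so nothing is read from their shares or medians. Of 25 genes, including Drosha and Dicer1, which cut the precursors, and Tut4 and Tut7, which tail them for decay, 3 were lower by at least 2-fold with CP and 0 were higher, 12.0% of the list against the 13.5% of all features given above, and the median log2 ratio was -0.03 against -0.08 over all features. Scaling to the median ratio of features at 50 CPM or more would add 0.14 to each log2 ratio in Pax7-like cells, which turns the sign of this median and of the medians of the seed-match groups below and of all features, but not of the other lists. Drosha stood at 44.1 against 44.4 CPM. The 3 were Trim71, which encodes a let-7 target and ubiquitin ligase (22.3 against 52.5 CPM, log2 ratio -1.23), Msi2, an RNA-binding protein (278 against 595 CPM, -1.10), and Trim25. Trim25 had the largest difference of the list, 2.18 CPM (295 UMIs) with CP against 19.4 CPM (308 UMIs) without, a log2 ratio of -3.16. The largest difference upward among the named genes was Tut4 (183 against 127 CPM, 0.52). One host transcript, Huwe1, was in the features, at 149 against 168 CPM (-0.17). The others on that list were not analysed here.

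Of 28 other genes known as let-7 targets, 6 were lower by at least 2-fold with CP (21.4% against 13.5% of all features) and 0 were higher (against 11.6%), with a median log2 ratio of -0.40 against -0.08. Cdk6, a G1 cyclin-dependent kinase, stood at 2.49 CPM with CP and 122 CPM without (-5.61), Ccnd2, a D-type cyclin, at 47.6 against 164 CPM (-1.78), and Trim71 was given above. The other 3 were Ccnd1, Dusp9 and Acvr1c. Dusp9 had 64 UMIs with CP and 50 without, and Acvr1c 14 and 5, so the Acvr1c call lies near the floor. Seed matches in these genes were unequal in number, 0 in Cdk6 and Ccnd2 and 4 in Trim71, and Nr6a1, with 8 matches, stood at 59.3 against 45.8 CPM.

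Genes were then grouped by their number of seed matches. In Pax7-like cells the median log2 ratio was -0.08 for 13270 genes with 0 matches, -0.13 for 1321 genes with 1 match, -0.02 for 166 genes with 2 and -0.13 for 26 genes with 3 or more. The shares at least 2-fold lower with CP were 12.5%, 13.4%, 10.8% and 23.1%. The last share stands for 6 genes, and the 26 genes of that group include Hmga2, Lin28b and Igf2bp1. Hmga2 and Igf2bp1 are among the 6 and belong to the set chosen on this contrast, so nothing is read from this share. The median 3' UTR was 4461.5 bases in that group and 1026 bases for genes with 0 matches.

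Of 13 RNAs known to be bound by IGF2BP proteins, 3 were lower by at least 2-fold with CP (23.1% against 13.5% of all features) and 2 (Gli1 and Mapk4) were higher (15.4% against 11.6%), with a median log2 ratio of -0.55 against -0.08. Both higher genes were scarce. Gli1 had 58 UMIs with CP and 1 without, and Mapk4 840 and 23. Ccnd1, a D-type cyclin, stood at 165 against 357 CPM (-1.11) and Ccnd3, another, at 330 against 693 CPM (-1.07). Igf2, the growth factor mRNA that named the family, stood at 34.3 against 20.04 CPM (0.77).

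Of 9 genes linked to Hmga2 in other tissues, 3 were lower by at least 2-fold with CP (Cdkn2b, Junb and Twist1, 33.3% against 13.5% of all features) and 0 were higher, with a median log2 ratio of -0.47 against -0.08. Junb, an AP-1 subunit, stood at 25.01 against 88.4 CPM (-1.82), Cdkn2b, a cell cycle inhibitor, at 18.6 against 37.9 CPM (-1.03), and Sp1, a transcription factor, at 29.4 against 48.0 CPM (-0.71). Cdkn2a, whose repression is tied to Hmga2 in stem cells, stood at 365 against 440 CPM (-0.27). The list was not split by the direction of the known link. Its count and median therefore do not show whether these genes follow Hmga2.

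Of 11 other oncofetal and fetal growth genes, 5 were lower by at least 2-fold (45.5% against 13.5% of all features) and 0 were higher (against 11.6%), with a median log2 ratio of -0.31 against -0.08. This list too was chosen with earlier results of these data known, so nothing is read from these shares. Mdk, the heparin-binding growth factor midkine, stood at 3.77 against 165 CPM (-5.45), Dlk1, a fetal and regenerating muscle gene, at 93.1 against 342 CPM (-1.88), and Plagl1, an imprinted zinc finger gene, at 217 against 545 CPM (-1.33). Gpc3, Mest, Peg3 and Grb10 lay within 2-fold. Of 9 other HMG proteins, 0 passed 2-fold in either direction, and the median log2 ratio was 0.46. All 9 reached 20 CPM in either library, where 8.43% of features were lower and 4.76% higher. With 9 genes, a count of 0 cannot be told from these shares. Hmgn2 stood at 284 against 176 CPM (0.69), Hmgb2 at 778 against 503 CPM (0.63) and Hmgn5 at 45.5 against 31.9 CPM (0.51). Hmga1 and Hmga2 were lower by more than 2-fold but belong to the set chosen on this contrast, so nothing is read from that difference.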

How the data were processed

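Droplet single-cell RNA sequencing (10x 3' v3.1) of 2 libraries was analysed, 1 per group, and groups came from the sample labels. The authors deposited whole UMI counts, obtained with Cell Ranger 7.0.0 (mouse GRCm39). Their methods name SoupX 1.5 only for the library with CP. No source used here says if intron reads were counted.

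Barcodes were filtered by the limits of the study: at least 250 genes, no more than 4000 (without CP) or 7000 (with CP) genes, at most 15% mitochondrial and 40% ribosomal counts. Each library was clustered in Seurat 5.3.0 (R 4.3.3) from the 2000 most variable genes and 30 principal components, by the Louvain method at resolution 0.5. Scrublet (scanpy 1.11.5) called 4 (0.101%) cells without CP, against 4.43% expected, and 299 (2.76%) with CP, against 9.60%, so it found few doublets and none were removed. Leaving out the cells with the highest doublet scores was 1 of the alternatives.

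Clusters were called "X-like" from 13 marker lists: at least 3 markers, the first of the list among them, at 1.5 times the 25th-percentile cluster and 10 CPM, ranked by markers among the top 10 genes. This scoring was chosen after the clusters were seen. Without the demand for the first marker, F/R/C+CP cluster 4 was called pericyte or smooth muscle-like. With the demand kept, an Spp1-led F/R/C+CP cluster took that name at a lower (858 cells) and a higher (446 cells) resolution. The same held with 20 principal components (745 cells). An Spp1-led cluster stayed Pax7-like with the followed and listed genes left out of the clustering (1026 cells). The Pax7-like name of cluster 4 therefore depended on the settings. Clusters led by Pkhd1 and Dmd (1 in each library) were left unnamed, also after seeing them. The files give no annotation, so names can differ from those of the study.

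Counts were summed and divided by their total (CPM). Ratios were taken for features with at least 10 counts over both sums, 3 counts stood in for a count of 0, whose ratio is a bound not taken past equality, and called means past 2-fold. Intervals are 95% exact Poisson, conditional binomial or Clopper-Pearson ones and cover counting error only, and the code was tested on simulated data. No test was run, since each group is a single library. Python 3.11.15, scipy 1.17.1 and numpy 2.4.6 were used. Seed matches were read from GENCODE vM21 transcripts (GRCm38), and no coordinates of that build were joined to the counts.

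The 7 genes and all lists were chosen with earlier results of these data known. Named from each list were the 3 genes with the largest absolute log2 ratio in Pax7-like cells among those at 20 CPM or more, and for likeness to Hmga2 the 5 genes with the highest r among features at 20 CPM or more in at least 2 clusters. A few others (such as Drosha, Nr6a1, Igf2, Cdkn2a and the remaining genes of the lists) were named after their values were seen. One gene that this rule names is not reported here.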

Additional observations from a re-analysis of the deposited data

How the results depend on the processing

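Over 135 recomputed log2 ratios of single genes, 0 reversed. Some of these come from dropping the count minimum, which cannot change a ratio. The Hmga2 ratio left its counting interval in 4 of 7 alternatives over all kept cells and in 9 of 12 in Pax7-like cells. When scaled to the median ratio, Igf2bp2 was at -1.10 over all kept cells and -1.01 in Pax7-like cells, close to the 2-fold line. The Hmga2 ratio with over without CP in all kept cells (-4.16) was -4.02 when scaled to the median ratio, -4.00 with all deposited barcodes, -3.83 as a mean of per-cell CPM and -2.89 within the shared range of UMIs per cell, where 190 and 6213 cells remained. In Pax7-like cells (-4.22) it was -4.08 when scaled, -4.04 in the shared UMI range (57 and 1210 cells), -4.15 per cell, -5.32 and -4.70 at resolutions 0.3 and 0.8, -4.88 with 20 principal components, -4.37 with the members and listed genes left out of the clustering, -4.15 with connective-like cells added, and -5.47 without the low-Cdkn1c clusters, an alternative chosen after seeing the data. The Igf2bp3 ratio was 2.88 (all kept cells) and 1.48 (Pax7-like cells) in the shared UMI range. In Pax7-like cells of that range, Igf2bp2 was at -1.02 and Hmga1 at -3.01. In that range, over all cells, Igf2bp2 was at -0.60 and Hmga1 at -2.32, 3 of the genes were lower by at least 2-fold in place of 4 and 1 was higher in place of 2, and at a fold of 1.5 the count of higher genes in Pax7-like cells was 2 in place of 1. Thinning to 1000 or 4000 UMIs and no thinning gave shares from 34.3% to 64.7% for Hmga2 in F/R/C Pax7-like cells and from 3.19% to 24.0% in F/R/C+CP ones. At resolutions 0.3 and 0.8 and with 20 principal components, the Pax7-like class with CP held 5711, 6019 and 5753 cells in place of 6341. The pericyte or smooth muscle-like class then held 858, 446 and 745 cells in place of 195. With the members and listed genes left out of the clustering, the Pax7-like class with CP held 7265 cells. The committed-like class then held 1170 cells in place of 2089. The cause of the moves in the ratios and shares was not tested. No paired analysis was possible because each group holds 1 library. No alternative stands in for a second clone.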
